A study of Mus musculus with 23 samples.

Results

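Neutrophils of the mouse spleen were examined in single-cell RNA-sequencing libraries of CD45+ spleen cells from wild-type (WT) mice and from mice that carry a STAT5B protein with the change Y665H or Y665F, in which a tyrosine is replaced by histidine or phenylalanine. A droplet barcode was taken as a neutrophil when S100a8 and S100a9 together held at least 5% of its unique molecular identifiers (UMIs, 1 per captured transcript), with at least 200 genes, at most 10% mitochondrial UMIs and no more than 1 UMI each of the summed Cd3 genes and of Cd79a. This rule gave 796 barcodes, of 19912 spleen barcodes that passed the gene and mitochondrial limits and of 139967 barcodes in the 16 expression libraries of the series. The members numbered 72 in WT, 482 in Y665H and 242 in Y665F.

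Each genotype was represented by 1 library, a combined sample of several mice, 2 months of age, labelled as C57BL/6. The mutants were generated in C57BL/6N, Y665H by base editing and Y665F by CRISPR/Cas9 with an oligonucleotide donor. The spleen labels do not give zygosity, and all cells were selected only for CD45, a surface protein of blood cells other than mature red cells. With 1 library per genotype there is no estimate of the spread between mice, so no test was made. Every interval below is a 95% interval that covers counting error only.

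Neutrophils are short-lived phagocytes of the innate immune system that mature in the bone marrow under granulocyte colony-stimulating factor (G-CSF), whose receptor signals through the STAT proteins. Granule proteins are made in order: primary (azurophil) granule enzymes in the promyelocyte, specific granule proteins in the myelocyte and metamyelocyte, and then chemokine and cytokine receptors and inflammatory mediators in the mature cell. The transcripts a neutrophil carries therefore date its maturation. The spleen holds mature neutrophils and, when blood formation takes place outside the marrow, their precursors as well.

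The libraries held between 36889328 and 47206322 UMIs in all, with a median of 5046 to 6487 per barcode. The median neutrophil carried 2963 UMIs in WT, 3312.5 in Y665H and 9994.5 in Y665F. Near the threshold, with 5 to 6% S100a8 and S100a9, lay 4 members in WT, 17 in Y665H and 1 in Y665F, and just below it, with 4 to 5%, lay 3, 24 and 4 other barcodes. No barcode sequence was shared between members of different libraries.

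The label was checked against markers that the rule did not use. Csf3r, the G-CSF receptor, was detected in 94.4% of WT, 95.9% of Y665H and 70.2% of Y665F members. Thinned to 500 UMIs per barcode, the share with a Csf3r UMI was 63.9%, 68.3% and 22.3%, against 0.208%, 0.532% and 0% of B-cell barcodes thinned in the same way. Ly6g, the classical surface marker of mouse neutrophils, was detected in 20.8%, 33.6% and 71.9% of members. After thinning its shares were 6.94%, 8.51% and 27.3%, against 0%, 0.160% and 0% of B-cell barcodes. For the other markers fixed for neutrophils, Cxcr2, Retnlg, Mmp9, Lcn2 and Ngp, the thinned shares lay between 9.72% and 82.6% of members and between 0% and 1.56% of B-cell barcodes.

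Transcripts of other cell types were scarce, with the following exceptions. The 6 red-cell genes summed to 2696 CPM (UMIs scaled to a total of 1e6 over the members of a library) in Y665H, against 39.3 in WT and 3.18 in Y665F, and to 6537, 618 and 23.0 CPM in the other barcodes of the same libraries. The part of these in the neutrophil values was not tested. The 6 natural killer (NK) cell genes summed to 397 CPM in WT, where a single barcode with 15008 UMIs held 80 of the 82 UMIs of Gzma, Ncr1, Klrb1c, Klre1 and Prf1. That barcode was also picked by the doublet score. The summed B-cell list (8 genes) was 499, 721 and 158 CPM, the T-cell list (9 genes) 62.8, 90.4 and 37.0, and the monocyte and macrophage list (10 genes, of which 6, 2 and 4 were at 0) 424, 584 and 1169. The rule itself limited Cd79a and the Cd3 genes, which belong to these B-cell and T-cell lists, so their low sums were partly set by it. The monocyte and macrophage list stood at 330, 446 and 630 CPM in the other barcodes, below the members of each library. The dendritic, eosinophil, basophil and platelet lists each stayed below 50 CPM, and all 6 basophil and mast-cell genes were at 0 in WT and Y665H.

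Neutrophils made up 1.05% (0.821 to 1.32) of the 6866 kept WT barcodes. In the Y665H library they made up 6.01% of 8018 barcodes (5.50 to 6.55), and in the Y665F library 4.81% of 5028 (4.24 to 5.44). With no lymphocyte UMI allowed, the shares were 0.830% in WT, 3.89% in Y665H and 3.62% in Y665F. Both mutant libraries thus lay above the WT library under either limit. The counting limits do not cover differences between mice or in cell capture.

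**Figure D1:**
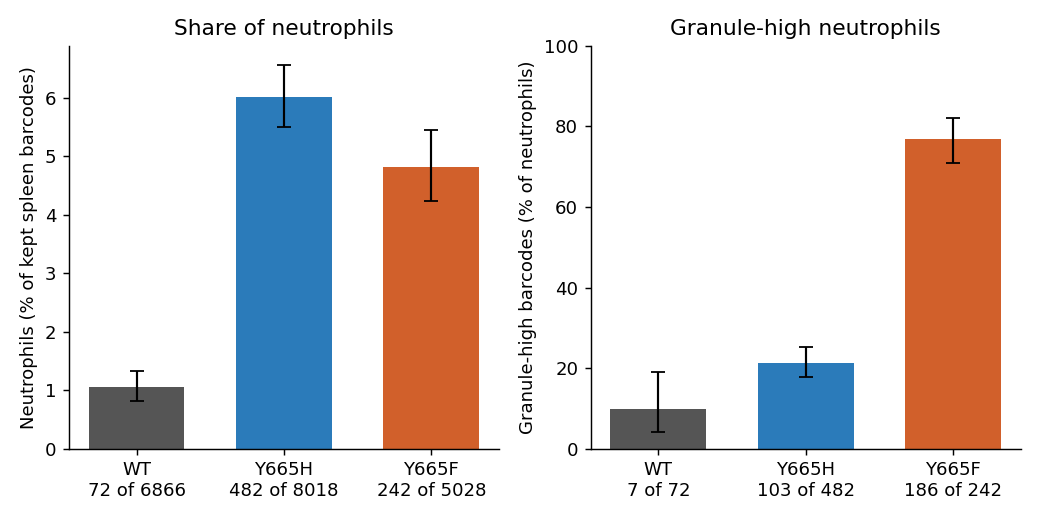
Left, neutrophils as a percentage of kept spleen barcodes in the WT, Y665H and Y665F libraries. Right, granule-high barcodes as a percentage of neutrophils. Bars give the share of 1 library and lines its exact 95% binomial interval. Y665H and Y665F both stand above WT on the left, while on the right Y665F (76.9%) stands apart from Y665H (21.4%) and WT (9.72%).

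The neutrophils of the 3 libraries differed in the transcripts that mark maturation. Specific granule transcripts (12 genes, among them Ltf, Camp, Ngp and Lcn2) held a median of 0.338% of the UMIs of a WT member, 0.571% in Y665H and 11.3% in Y665F. Transcripts of the mature neutrophil list (20 genes, among them Csf3r, Cxcr2 and Il1b) held 3.15%, 3.63% and 1.30%. Barcodes fell into 2 populations along this axis. Between 2 and 5% specific granule UMIs lay only 0 WT, 3 Y665H and 10 Y665F members, whereas 6, 53 and 163 lay above 5%.

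Members with at least 1% specific granule UMIs are called granule-high here and the others granule-low. Granule-high were 7 of 72 members in WT (9.72%, exact interval 3.999 to 19.0), 103 of 482 in Y665H (21.4%, 17.8 to 25.3) and 186 of 242 in Y665F (76.9%, 71.0 to 82.0). Thinned to 500 UMIs per barcode, so that the number of UMIs was equal, the shares were 15.3%, 28.2% and 80.6%. The order of the libraries was the same. The gate sat inside the dense population in Y665H, where 224 members lay between 0.5 and 2%. With the gate at 3%, members here called granule-rich, the shares were 8.33% in WT (6 barcodes), 11.4% in Y665H (55) and 70.2% in Y665F (170). Y665H and WT then differed by less than the WT interval, and Y665F remained far above both.

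**Figure D2:**
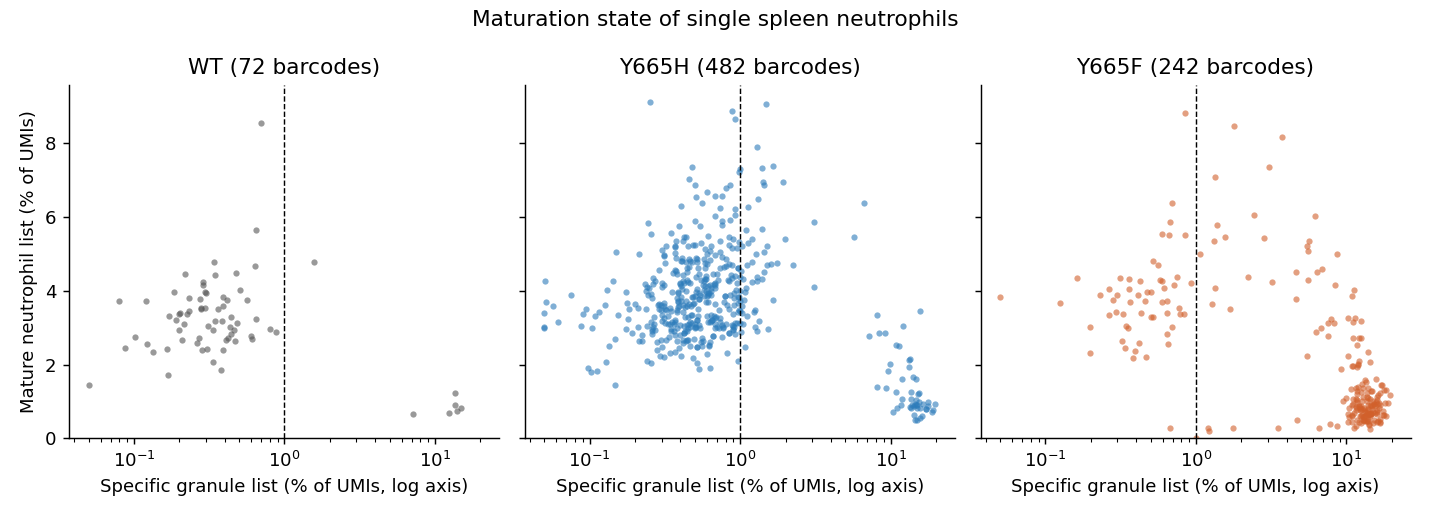
Each point is 1 neutrophil barcode. The x axis gives the specific granule list as a percentage of its UMIs on a log axis, with values under 0.05% drawn at 0.05%, and the y axis the mature neutrophil list as a percentage of its UMIs. The dashed line marks the 1% gate. Most WT and Y665H barcodes gather at low granule and high mature values. Most Y665F barcodes lie at over 10% granule UMIs, many of them near 1% mature UMIs, while 56 of 242 lie below the gate.

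Across the barcodes of 1 library both percentages were inversely related (Pearson r of -0.54 in WT, -0.53 in Y665H and -0.71 in Y665F, given as a description, since both are shares of the same UMIs). Granule-high barcodes were also larger. Their median was 10606 UMIs in WT, 5581 in Y665H and 10978 in Y665F, against 2891, 3110 and 3422.5 in granule-low barcodes. The median mitochondrial share of UMIs was 0.234% in WT, 0.247% in Y665H and 0.634% in Y665F. It moved with the class, at 0.687%, 0.420% and 0.766% in granule-high and 0.208%, 0.225% and 0.247% in granule-low barcodes, and its part in the results was not tested.

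The specific granule genes with the highest summed UMIs carried this difference together. Ltf encodes lactoferrin, Camp the cathelicidin antimicrobial peptide, Ngp neutrophilic granule protein and Lcn2 the iron-sequestering lipocalin-2. The promoters of these 4 genes, 250 bases before to 50 bases after the start (RefSeq, GRCm38.p6), are shown because these genes were higher together in Y665F. Capitals mark TTNNGCAA on either strand, a pattern that factors of the C/EBP family can bind. Ltf lies at chr9:111019042-111019341 (plus strand), Camp at chr9:109849407-109849706 (minus), Ngp at chr9:110419558-110419857 (plus) and Lcn2 at chr2:32387690-32387989 (minus).
Ltf: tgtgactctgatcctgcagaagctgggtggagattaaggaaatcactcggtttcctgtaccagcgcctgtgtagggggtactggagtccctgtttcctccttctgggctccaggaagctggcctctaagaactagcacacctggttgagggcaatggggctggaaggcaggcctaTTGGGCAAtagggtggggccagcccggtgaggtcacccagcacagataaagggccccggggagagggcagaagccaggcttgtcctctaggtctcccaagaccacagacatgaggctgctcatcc
Camp: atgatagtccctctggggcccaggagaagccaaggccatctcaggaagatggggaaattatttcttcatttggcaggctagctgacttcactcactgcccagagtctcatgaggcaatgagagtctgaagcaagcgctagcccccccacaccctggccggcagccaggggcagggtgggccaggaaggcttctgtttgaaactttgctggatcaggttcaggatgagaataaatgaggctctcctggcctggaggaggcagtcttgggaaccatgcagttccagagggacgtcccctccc
Ngp: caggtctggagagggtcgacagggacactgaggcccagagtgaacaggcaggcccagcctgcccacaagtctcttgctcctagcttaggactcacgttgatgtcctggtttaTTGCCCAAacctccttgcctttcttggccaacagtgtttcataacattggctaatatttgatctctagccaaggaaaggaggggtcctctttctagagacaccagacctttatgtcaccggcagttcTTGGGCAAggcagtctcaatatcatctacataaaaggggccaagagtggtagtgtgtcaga
Lcn2: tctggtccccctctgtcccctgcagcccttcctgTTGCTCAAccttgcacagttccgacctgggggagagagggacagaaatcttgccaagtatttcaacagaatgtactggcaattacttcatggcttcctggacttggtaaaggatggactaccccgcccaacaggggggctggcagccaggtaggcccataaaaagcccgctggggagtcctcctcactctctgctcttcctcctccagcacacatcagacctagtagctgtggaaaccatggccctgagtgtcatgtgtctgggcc
The pattern occurred 1 time in the Ltf window, 2 times in the Ngp window, 1 time in the Lcn2 window and not in the Camp window. It was found for 5 of the 12 specific granule genes and for 12.2% of 27025 genes. TTCNNNGAA, a pattern that STAT5 can bind, was found for 1 of the 12 and for 9.55% of genes. Such matches describe the letters and are no evidence of binding.

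Ltf stood at 3220 CPM in WT (3003 to 3448), at 4645 in Y665H (4551 to 4741) and at 12395.5 in Y665F (12258 to 12534). Camp stood at 9342, 11641 and 31319 CPM, Ngp at 9377, 14408 and 32204, and Lcn2 at 4257, 7094 and 15156. Y665F was highest for each, 3.35- to 3.85-fold above WT. Chil3, a chitinase-like protein of immature neutrophils, stood at 1280, 1636 and 6142 CPM. Of the 12 specific granule genes, 9 lay past 2-fold higher in Y665F than in WT, with a median log2 ratio of 1.57. Over all genes, 14.4% of 2832 lay past 2-fold higher (33.5% in either direction), and the median was -0.17. In Y665H against WT none of 11 passed 2-fold, with a median of 0.38, beside 3.76% of 2848 genes in either direction. The WT level rested on few cells, since 91.9% of its specific granule UMIs came from 7 barcodes, 1 of them the barcode with NK transcripts. Without that barcode the summed list was 1.84 higher in Y665F than in WT on the log2 scale, in place of 1.73, and 0.61 higher in Y665H, in place of 0.50.

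The mature list ran the other way in Y665F. Csf3r stood at 2046 CPM in WT, 1840 in Y665H and 303 in Y665F, with a log2 ratio of Y665F to WT of -2.75 (-2.92 to -2.59). Cxcr2, the chemokine receptor that brings mature neutrophils out of the marrow, stood at 1838, 2132 and 464 CPM. Il1b, encoding the inflammatory cytokine interleukin-1 beta, stood at 4186, 4096 and 438. WT and Y665H lay close together for these 3 genes and Y665F far below. Of 19 measured members of the mature list, 13 lay past 2-fold lower and 1, Wfdc21, past 2-fold higher in Y665F than in WT (median -1.49, beside 19.2% of all genes lower). In Y665H against WT none of 20 passed 2-fold (median 0.16), beside 3.76% of all genes. Retnlg, a resistin-like granulocyte protein, was the least affected abundant member between Y665F and WT, at 6157, 9821 and 5454 CPM. It was highest in Y665H.

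Other lists differed between Y665F and WT to varying degrees. The inflammatory list had 6 of 7 measured genes past 2-fold lower in Y665F than in WT (median -2.27), beside 19.2% of all genes. It includes Cxcl2, a neutrophil-attracting chemokine, at 699, 1282 and 101 CPM, and Ptgs2, the inducible cyclooxygenase, at 565, 191 and 43.7 CPM. By the rule for named genes, Ptgs2 was also the furthest below WT in Y665H (log2 ratio -1.56, -1.84 to -1.28). Of the survival list only 2 genes were measured, both past 2-fold lower in Y665F than in WT. Of these, Mcl1, an anti-apoptotic BCL-2 family protein on which neutrophils depend, stood at 2085, 2154 and 477 CPM. Of 7 measured transcription factors, 2 lay past 2-fold higher and 3 lower in Y665F than in WT, beside 14.4% of all genes higher and 19.2% lower. Cebpe, which drives specific granule genes, stood at 169, 169 and 529 CPM, and Cebpb, of later stages, at 1037, 1505 and 416. The NADPH oxidase list, the enzyme of the respiratory burst, had 4 of 6 genes within 2-fold (median 0.50), and the gelatinase granule list 3 of 6 (median -0.35). Over all genes 33.5% lay past 2-fold in either direction, so the NADPH oxidase count lies near that share. Beyond the lists, the genes furthest below WT in Y665F included H2-Q10, Cd300ld, St8sia4, Fgl2, Junb, Pla2g7 and Tgfbi, with log2 ratios between -3.56 and -2.89.

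Stat5b itself stood at 130 CPM in WT (89.2 to 182), at 122 in Y665H (107 to 138) and at 42.5 in Y665F (34.8 to 51.4). Of the cytokine and STAT5 pathway list, 6 of 11 measured genes lay past 2-fold lower in Y665F than in WT (median -1.09) and none higher, beside 19.2% of all genes lower and 14.4% higher. Socs3, a feedback inhibitor of cytokine signalling, stood at 232, 310 and 25.03 CPM, and Pim1, a kinase gene induced by STAT5, at 593, 642 and 143. Cish, the classical STAT5 target, had 0, 6 and 36 UMIs among 254661, 1990407 and 2516639, too few to count among the measured genes. It was highest in Y665F, at 14.3 CPM, and there lay below the 57.7 CPM of the other barcodes of that library. The counting interval of 0 UMIs in WT ran up to 14.5 CPM, so Y665F could not be placed above WT. In Y665H none of 15 genes of the list passed 2-fold against WT, beside 3.76% of all genes.

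The Y665F library also held the earliest stages. Elane, Mpo and Ctsg, which encode the primary granule enzymes neutrophil elastase, myeloperoxidase and cathepsin G, had 0 UMIs in the WT and in the Y665H members. In Y665F they had 2987, 1763 and 530 UMIs, and Prtn3, proteinase 3, had 2599 against 1 in WT and 19 in Y665H. Set against a floor of 3 counts in the WT library, the summed level of Elane in Y665F was 101-fold higher and that of Mpo 59.5-fold. Set against that floor in Y665H the values were 787-fold and 465-fold. They treat UMIs as independent counts although few barcodes carried them, so they are no lower limit on the difference.

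These transcripts came from few barcodes. With 10 or more UMIs of Mpo, Elane, Prtn3 and Ctsg, 17 of 242 Y665F members (7.02%, 4.15 to 11.01) are called early here, against 1 of 482 in Y665H (0.207%) and 0 of 72 in WT (0%, 0 to 4.99). The intervals of Y665F and WT overlapped. The 17 held 7834 of the 7879 UMIs of the 4 genes, and 16 of them also carried at least 2 UMIs of Mki67 and Top2a. Their specific granule share ran from 0.678% to 16.8%, and their mature list held a median of 0.344% of UMIs. No B-cell barcode of any library reached 10 UMIs.

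Dividing cells showed the same order. Mki67, the proliferation antigen Ki-67, stood at 0, 77.9 and 437 CPM, and Top2a, the topoisomerase of dividing cells, at 0, 55.8 and 321 CPM. At least 2 UMIs of the pair were present in 0 of 72 WT members (0 to 4.99%), 9 of 482 in Y665H (1.87%, 0.857 to 3.51) and 58 of 242 in Y665F (24.0%, 18.7 to 29.9). In B-cell barcodes the share was 1.87%, 1.597% and 1.70%. The Y665H share lay near that of B cells and the Y665F share above it. Of the 9 Y665H barcodes, 8 were granule-high. Thinned to 500 UMIs, the shares were 0%, 1.04% and 11.2% of members, and 0.277%, 0.319% and 0.567% of B-cell barcodes. The thinned Y665H share, above its B-cell share, rests on 5 barcodes. The 12 cell cycle genes summed to 39.3 CPM in WT (18.8 to 72.2), where 9 of them were at 0, to 353 in Y665H (327 to 380) and to 1935 in Y665F (1881 to 1990). They stood at 214, 336 and 399 CPM in the other barcodes of the same libraries.

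Proliferation could also be compared among granule-rich barcodes, whose median depth was similar (11013, 11278 and 11527 UMIs). At least 2 UMIs of Mki67 and Top2a were found in 0 of 6 WT, 8 of 55 Y665H (14.5%, 6.50 to 26.7) and 54 of 170 Y665F barcodes (31.8%, 24.8 to 39.3). The intervals of Y665H and Y665F overlapped, and that of the 6 WT barcodes ran up to 45.9%. The granule-rich class included 12 early barcodes in Y665F and 1 in Y665H.

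**Figure D3:**
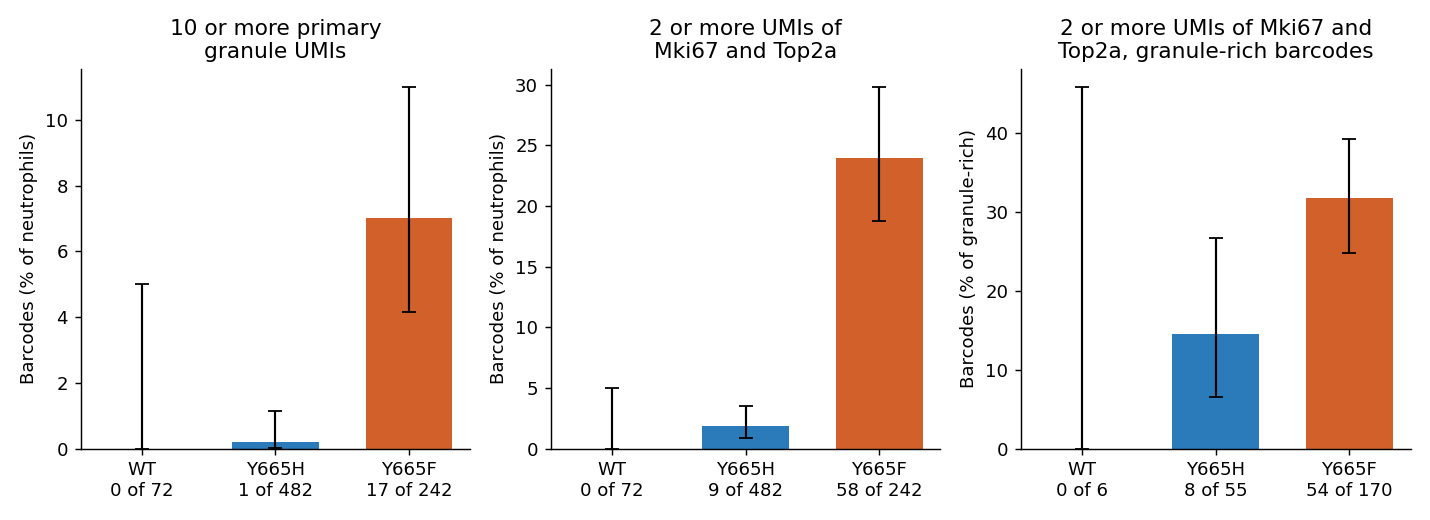
Shares of barcodes with 10 or more UMIs of Mpo, Elane, Prtn3 and Ctsg (left), with 2 or more UMIs of Mki67 and Top2a (middle), and of granule-rich barcodes with 2 or more UMIs of Mki67 and Top2a (right). Bars give the share of 1 library and lines its exact 95% binomial interval. Y665F is highest in each panel, and on the right its interval overlaps that of Y665H.

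The libraries were then compared within classes set by the specific granule list. In granule-low members, 14.3% of 2471 genes lay past 2-fold between Y665F and WT, against 33.5% in all members. A single early barcode with 46345 UMIs had fallen below the gate and supplied 20.1% of the UMIs of the Y665F granule-low class. Without it, 55 barcodes with 184460 UMIs remained, near the 65 barcodes and 188110 UMIs of WT, and 9.75% of 2318 genes lay past 2-fold (3.11% higher and 6.64% lower). The granule-low values in the rest of the report leave that barcode out unless stated otherwise. The classes still differed somewhat along both lists. The median barcode carried 0.306% specific granule UMIs in WT, 0.474% in Y665H and 0.468% in Y665F, and 3.20%, 3.69% and 3.72% mature list UMIs.

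In this class the mature genes lay closer together. Csf3r stood at 2732 CPM in WT, 2667 in Y665H and 2499 in Y665F, with a log2 ratio of Y665F to WT of -0.13 (-0.31 to 0.06). Cxcr2 stood at 2419, 2890 and 2792 CPM, Il1b at 5396, 6076 and 5367, and Mcl1 at 2669, 2987 and 2581. For these 4 genes Y665F did not stand apart as it did over all members. Of 20 mature genes, 1, Il1r2, passed 2-fold between Y665F and WT (median 0.19, in place of -1.49). Stat5b stood at 144, 163 and 152 CPM, with a log2 ratio of Y665F to WT of 0.08 (-0.74 to 0.90). Of 15 genes of the cytokine and STAT5 pathway list, 1 passed 2-fold, the cytokine gene Osm, at 213, 404 and 482 CPM. No inflammatory gene of 7 did so. These counts stand beside the 9.75% of all genes past 2-fold in this class.

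**Figure D4:**
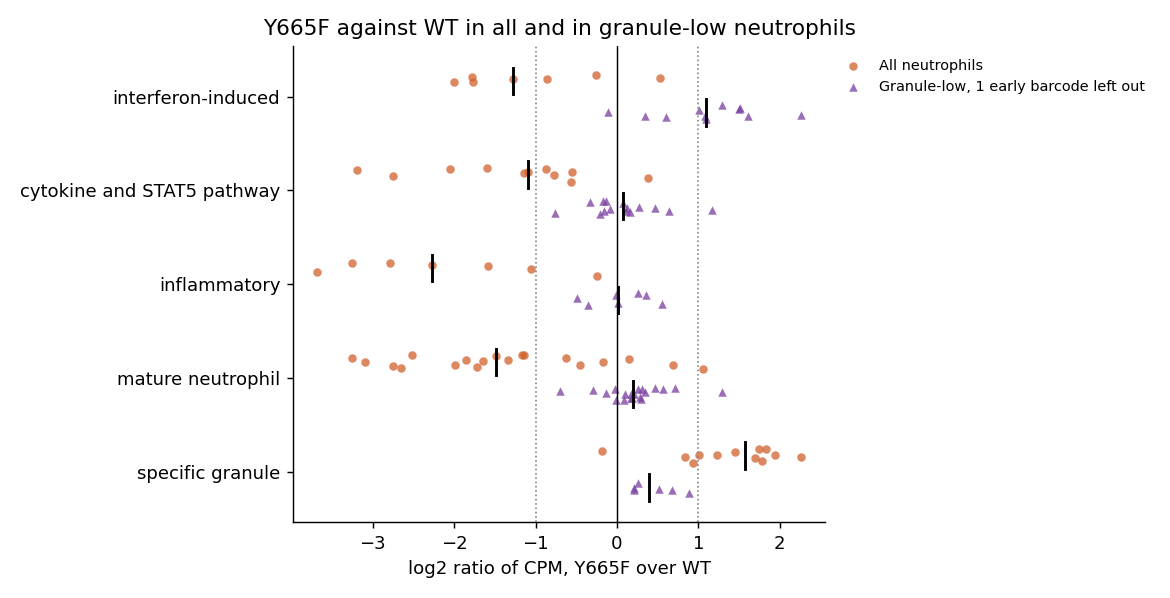
Each point is a measured gene of the list named on the y axis, at its log2 ratio of CPM in Y665F over WT on the x axis. Circles show all neutrophils, triangles granule-low neutrophils without the 1 early barcode, black bars the medians and dotted lines 2-fold. The mature neutrophil median moves from -1.49 to 0.19 and the inflammatory median from -2.27 to 0.01, while the interferon-induced median moves from -1.28 to 1.09.

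The interferon-induced list was higher in both mutants than in WT in this class, whereas over all members only Y665H lay above WT. Over all members it held 0.371% of UMIs in WT, 0.615% in Y665H and 0.216% in Y665F, and 4 of 7 measured genes lay past 2-fold lower in Y665F than in WT (beside 19.2% of all genes). Among granule-low members it held 0.454%, 0.818% and 1.04%. Ifitm1 alone gave 444 of the 854 UMIs of the list in WT, 5995 of 9799 in Y665H and 1063 of 1915 in Y665F. The summed shares therefore lean on that gene. With the early barcode in, the list held 0.830% in Y665F, still above Y665H. The counting interval of Y665F (7934 to 8682 CPM) then overlapped that of Y665H (8017 to 8342 CPM). The order of the mutants was then within counting error. The median WT barcode carried 0.286% (quartiles 0.103 to 0.682), the median Y665H barcode 0.668% (0.376 to 1.17) and the median Y665F barcode 0.804% (0.439 to 1.34). Barcodes of the 3 libraries overlapped widely. In the other kept barcodes of the same libraries, neutrophils left out, the list held 0.0424%, 0.0604% and 0.0507%.

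Ifitm1, a membrane protein that blocks virus entry, stood at 2360 CPM in granule-low WT members, 5004 in Y665H and 5763 in Y665F. Isg15, a ubiquitin-like modifier, stood at 149, 282 and 428 CPM, Oasl2, a 2′-5′ oligoadenylate synthetase-like protein, at 383, 523 and 819, and Rtp4 at 117, 220 and 336. The order WT, Y665H, Y665F held for these 4 genes and for 12 of the 16 genes of the list. No share of all genes in that order was taken to set beside this count. Among the 12, Ifi47, Ifit2, Usp18 and Xaf1 had only 1, 2, 4 and 5 UMIs in WT. In the other 4, Rsad2, Irf7, Ifit3 and Cmpk2, Y665H was lowest, with Rsad2, an antiviral enzyme, at 266, 240 and 407 CPM. Against WT, 8 of 11 measured genes of the list lay past 2-fold higher in Y665F (median log2 ratio 1.09, beside 3.11% of all genes and a median of -0.14) and 2 of 10 in Y665H (median 0.80, beside 3.42% and -0.04). Both comparisons share the WT library. In the planned class, with the early barcode in, the Y665F median was 0.87 and 4 of 10 genes lay past 2-fold higher, beside 8.26% of all genes.

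**Figure D5:**
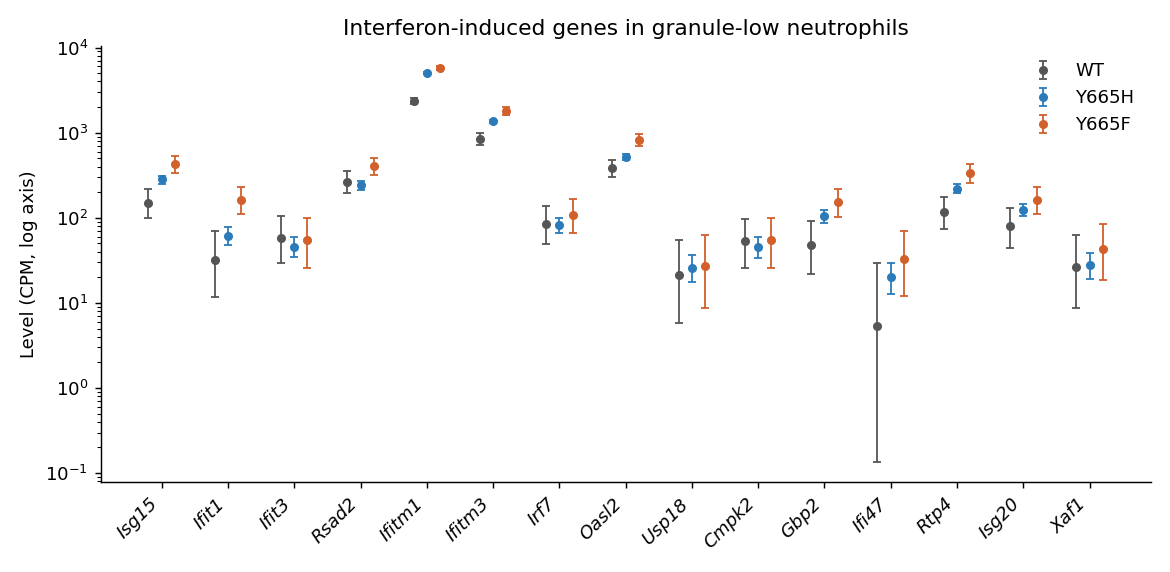
Level of each gene of the interferon-induced list with at least 20 UMIs in 1 of the libraries, in granule-low neutrophils without the 1 early barcode (CPM, log axis). Points are the value of 1 library and lines its exact 95% Poisson interval. Ifitm1, Isg15, Oasl2 and Rtp4 are lowest in WT and highest in Y665F. The intervals of Ifit3, Irf7, Usp18, Cmpk2, Ifi47, Isg20 and Xaf1 overlap in all 3 libraries.

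Genes outside the lists also set granule-low members apart. Against WT, those furthest above in both mutant libraries included Samd9l, an interferon-responsive gene, at 37.2 CPM in WT, 239 in Y665H and 255 in Y665F. Id1, an inhibitor of helix-loop-helix factors, stood at 21.3, 130 and 217 CPM, and Fabp5, a fatty acid-binding protein, at 63.8, 219 and 336. These 3 genes were picked for standing above WT, where they had only 7, 4 and 12 UMIs. Ifi27l2a, another interferon-induced gene, stood at 473, 799 and 2304 CPM, and Nampt, which makes NAD from nicotinamide, at 69.1, 103 and 276. Thbs1, thrombospondin, stood at 53.2, 100 and 255 CPM. Below WT in Y665F lay Ppp1r15a, a stress-response phosphatase subunit (log2 ratio -1.73, -2.96 to -0.73), and C5ar2, a complement receptor (-1.63, -2.74 to -0.71). In Y665H, Ptgs2 was lowest against WT here too (-1.33, -1.62 to -1.03).

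In Y665H granule-low members, Lcn2 stood at 1712 CPM, against 819 in WT and 1312 in Y665F, and Cxcl2 at 1785, against 867 and 873. Lcn2 belongs to the specific granule list that sets this class, so its level here was partly set by the gate. The 4 measured red-cell genes were each past 2-fold higher in Y665H than in WT, and the red-cell list summed to 4355 CPM, against 53.2 in WT and 0 in Y665F. Its part in other values of that class was not tested. In all, 4.69% of 2369 genes passed 2-fold between Y665H and WT.

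Granule-rich members were compared in the same way. Ltf stood at 12953 CPM in WT, 15260 in Y665H and 14470 in Y665F, Camp at 37580, 38316 and 36220, and Ngp at 37690, 47327 and 37464, values that the gate itself selected. Of 4689 genes, 6.33% passed 2-fold between Y665F and Y665H, 5.42% of all genes being higher in Y665F and 0.917% lower. None of 18 mature genes passed (median -0.14). Among the neutrophil lists, the most genes past 2-fold were in the primary granule list, with 5 of 7 genes past 2-fold higher in Y665F, 3 of the 7 at 0 UMIs in Y665H (Prtn3 at 24.9 CPM in Y665H and 413 in Y665F), and in the cell cycle list, with 6 of 12 (Mki67 at 239 and 492, Pclaf at 101 and 260). This class kept its early barcodes, 12 of 170 in Y665F and 1 of 55 in Y665H, which were picked on Mpo, Elane, Prtn3 and Ctsg. Over all Y665F members, early barcodes held 7834 of the 7879 UMIs of these genes. The Prtn3 difference therefore rests on few barcodes picked on that gene. The part of the early barcodes in the other counts was not tested. Lists of other cell types differed as well. The B-cell list stood at 572 CPM in Y665H (513 to 635) and 142 in Y665F (126 to 158), the red-cell list at 182 (150 to 220) and 3.71 (1.603 to 7.32), and the NK list at 36.4 (22.8 to 55.2) and 70.1 (59.3 to 82.2). Their part in the other values was not tested. With the gate at 1%, where the Y665H class reaches into the dense population, 15.1% of 5452 genes passed and 9 of 19 mature genes lay past 2-fold lower in Y665F, beside 6.73% of all genes.

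The 6 WT granule-rich barcodes held 63305 UMIs, which limits what can be said of them. They include the barcode with NK transcripts and 15008 UMIs, and the NK list stood at 1516 CPM in this class. Retnlg stood at 711 CPM in these barcodes, 4919 in Y665H and 4405 in Y665F, and Fcnb, a ficolin of the granules, at 94.8, 444 and 750. Without the NK barcode the WT levels were 849 CPM for Retnlg and 124 for Fcnb. Both genes were among the largest rises of Y665H over WT in this class, so their place above WT follows from that choice. Fcnb had only 6 UMIs in WT. Of 629 genes measured, 9.54% passed 2-fold between Y665F and WT.

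Levels relative to all UMIs depend on the scaling. Under TMM scaling the median log2 ratio of all genes moved from -0.17 to 0.27 in Y665F against WT and from -0.08 to 0.37 in Y665H against WT. Among genes past 2-fold, 42.8% were higher in Y665F than in WT, against 72.1% under TMM, 67.7% under the median of ratios and 53.1% with S100a8 and S100a9 left out of the total. For Y665H against WT the share was 72.9%, against 97.0% under TMM and 93.7% under the median of ratios. In all members, the specific granule median against WT stayed above and the mature median below 0 in Y665F under each of these scalings, and the interferon-induced median of granule-low members stayed above 0 in both mutants.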

How the data were processed

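Single-cell RNA-sequencing was performed on CD45+ spleen cells of WT, Y665H and Y665F mice, 1 library each. Per the file headers, the deposited UMI counts per gene and barcode were made by the authors with Cell Ranger 6.0.0, and the submitters' processing notes name version 5.0. The methods give the mouse genome GRCm38. The labels name a 3′ and the methods a 5′ kit. Of 32285 genes, 32158 (99.6%) matched the GENCODE gene identifiers used for annotation.

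Barcodes under 200 detected genes or above 10% mitochondrial UMIs were left out. Doublets were scored against simulated doublets (0.8% per 1000 barcodes), which picked 5, 16 and 13 members in WT, Y665H and Y665F, and were kept unless stated. UMIs were summed per library and expressed as CPM over the members. Log2 ratios used a prior count of 0.5 and were read where the smaller library was expected to hold at least 10 UMIs. "Past 2-fold" means a log2 ratio beyond 1 in either direction. With 1 library per genotype no test was possible, and intervals (exact binomial for shares, exact Poisson for levels, conditional binomial for ratios, 95%) cover counting error only.

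Genes named are members of the gene lists, plus the 10 highest and 10 lowest log2 ratios per comparison among genes expected to reach 20 UMIs whose interval left out 0 and whose CPM in the higher library was at least that of the other kept barcodes there. Mitochondrial, ribosomal protein, antigen receptor, sex-linked and provisionally named genes were left out. The members and lists were chosen with earlier results of these data known. The granule-rich class, the granule-low class without the early barcode and the genes singled out within them were chosen after their values were seen. Computation used R 4.3.3 with edgeR 4.0.16 (TMM factors only) and Python 3.11.15 with scikit-learn 1.9.0, pandas 2.3.3, scipy 1.17.1 and numpy 2.4.6, and was tested on simulated data.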

Additional observations from a re-analysis of the deposited data

Results flagged for a closer look

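In the barcodes that the neutrophil rule left out, 10 or more UMIs of Mpo, Elane, Prtn3 and Ctsg were found in 26 of 4786 in Y665F, against 0 of 6794 in WT and 7 of 7536 in Y665H. This is a signal in barcodes outside the neutrophils described. In these barcodes S100a8 and S100a9 held a median of 0.0271% of UMIs in Y665F, where 24 of 26 lay below 1% and 1 lay above 5%, and all 7 of Y665H lay below 1%. The identity of these barcodes was not tested.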

How the results depend on the processing

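No paired analysis was possible because each genotype has 1 spleen library, and leaving out a replicate was not possible for the same reason. With S100a8 and S100a9 at 10% or more of UMIs, neutrophils were 0.728% of barcodes in WT and 4.94% in Y665H. With no lymphocyte UMI allowed they were 3.89% in Y665H and 3.62% in Y665F. Both mutants stayed above WT in each. Granule-high shares with the gate at 0.5% were 23.6% in WT, 58.1% in Y665H and 88.0% in Y665F. For Y665H they were 11.6% at a gate of 2%, 11.4% at 3%, 28.2% after thinning and 26.0% with S100a8 and S100a9 at 10% or more, and for Y665F 70.2% at a gate of 3%. Y665F was highest under each.

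The summed specific granule and mature lists kept their direction under every alternative run on all members. Within classes some turned. Among granule-high barcodes the mature list stood at 12933 CPM in Y665F, above the 10443 of WT. The mature list in Y665F to WT was 0.20 in granule-low barcodes without the early barcode (-0.10 with it) and 0.50 in granule-rich ones, and the specific granule list in Y665F to Y665H was -0.14 in granule-rich ones and -0.09 in granule-low ones without the early barcode. In Y665H to WT it was -0.09 in granule-high ones. The classes were cut on the specific granule list, so its ratios within them were partly set by the gate. The interferon-induced list in Y665F to WT was -0.78 over all members and 1.19 in granule-low barcodes without the early barcode. The specific granule list, as log2 ratio of Y665H to WT, was 0.50 as reported. It was 0.54 with S100a8 and S100a9 left out of the total, 0.95 under TMM, 0.78 under the median of ratios, 0.54 as a mean of barcode shares, 0.55 and 0.32 with the S100 minimum at 3% and 10%, 0.79 without doublets and 0.61 without the WT barcode with NK transcripts. For Y665F to WT (1.73) the values in the same order were 1.87, 2.15, 2.08, 2.70, 1.82, 1.45, 2.07 and 1.84. For Y665F to Y665H (1.23) they were 1.33, 1.197, 1.31, 2.16, 1.27, 1.13 and 1.28. With Ltf, Camp, Ngp and Lcn2 only, Y665F was at 1.80 against WT and 1.27 against Y665H. The mature list in Y665H to WT (0.23) was 0.27 without S100a8 and S100a9 in the total, 0.68 under TMM, 0.50 under the median of ratios, 0.27 with the S100 minimum at 10%, 0.14 without doublets and 0.16 without the NK barcode. In Y665F to WT (-0.94) these were -0.79, -0.51, -0.58, -0.85, -1.03 and -1.003, and -0.53 as a mean of barcode shares. In Y665F to Y665H (-1.16) the values were -1.06, -1.19, -1.08, -1.12 with the S100 minimum at 10%, and -0.77 as a mean of barcode shares.

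Genes past 2-fold in Y665H to WT numbered 107, and 6106 with no filter on low counts, 22 with at least 30 expected UMIs, 362 under TMM, 221 under the median of ratios and 39 in granule-rich barcodes. In Y665F to WT they numbered 950, and 7919, 339, 354 in granule-low barcodes with the early barcode in, 226 without it and 60 in granule-rich barcodes. In Y665F to Y665H they numbered 2680, and 6699, 1609, 319, 118 and 297. Fewer genes were measured in the smaller classes. Of the genes named, Gzma in Y665H to WT turned from below to above WT without doublets (0.53), and Cebpb (0.45), Ifitm1 (0.96), Isg15 (1.19) and Oasl2 (0.77) in Y665F to WT lay above WT in granule-low barcodes with the early barcode in. Without it they were at 0.76, 1.29, 1.51 and 1.09. The scalings, the prior count and the removal of doublets turned no other gene. The 4-gene list, the granule-rich and early-barcode classes and the removal of the NK barcode were chosen after seeing the data. WT, with 72 barcodes, limits every ratio taken against it.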

Other observations

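Further barcodes with at least 5% S100a8 and S100a9 were left out of the neutrophils because they held more than 1 UMI of the Cd3 genes or of Cd79a. There were 9 such barcodes in WT, 51 in Y665H and 27 in Y665F, with median depths of 1325, 7757 and 15185 UMIs. Of these, 0, 17 and 22 would have been granule-high, and the doublet score picked 2, 31 and 13. Both mutant libraries therefore lost granule-high barcodes to this limit, and whether they are doublets was not tested beyond the score.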
